A study of Mus musculus with 9 samples.

Results

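The mitosis and G2/M genes are those whose products carry a cell from the end of DNA replication through chromosome segregation and cell division. The list held 40 genes, and 37 of them had a probe set annotated with that symbol alone, out of 8251 genes with such a probe set in the whole series. Each gene was represented by 1 probe set, the one with the highest mean over the 9 arrays. Ccnb1 (cyclin B1), Bub1b (BubR1) and Cdc25b had no such probe set and were dropped. The series used oligonucleotide arrays to measure total RNA from orofacial tissue, which forms the face and palate, of mouse embryos. It holds 9 arrays, of which 3 (numbered 1 to 3) are from gestation day (GD) 12, 3 from GD13 and 3 from GD14, and the comparisons ask which transcripts differ between days. The labels name no strain, genotype or treatment, and do not say how embryos were pooled or whether arrays of the same day represent different litters. The p-values therefore measure only the spread between these samples, which may be technical. In a bulk sample, fewer dividing cells and less RNA per dividing cell cannot be told apart.

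Entry into mitosis is driven by the kinase Cdk1 bound to A- and B-type cyclins. Wee1 holds it inactive by phosphorylation, and the Cdc25 phosphatases release it. Polo and Aurora kinases, kinesin motors and condensin then build the spindle and compact the chromosomes, the spindle checkpoint delays anaphase until all kinetochores are attached, and the anaphase promoting complex destroys the cyclins. Transcripts of most of these genes accumulate in G2 and are low in cells that have left the cycle, so in a tissue they are commonly read as a sign of proliferation. The palatal shelves grow out from the maxillary processes during these days, and their mesenchyme proliferates while muscle, bone and epithelium differentiate around it.

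Values are deposited array intensities, a linear brightness per probe set that the authors had scaled between arrays. Log2 differences were computed on log2(intensity + 3), and a gene was called when its adjusted p in limma was under 0.05, with adjustment over all 9326 tested probe sets. The 9 arrays had median intensities of 47.1 to 57.0. All 37 genes passed the filter on dim probe sets, an intensity of about 10.4, and their mean intensities ran from 11.6 for Cenpe to 3547 for Stmn1, with a median of 244. All 18 facial mesenchyme genes with a probe set, among them Msx1, Prrx1 and Twist1, had mean intensities between 41.9 and 1356, all above the filter. RNA quality was read from the actin controls, as signal near the 3′ end over signal near the 5′ end. This actin ratio was 1.42 to 1.77 for the GD12 arrays, 1.25 to 2.23 for GD13 and 1.37 to 2.44 for GD14.

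Between GD12 and GD14 most mitosis genes were lower, by a modest amount. Of the 37 genes, 34 had a log2 difference below 0, against 52.5% of all tested probe sets. Their median difference was -0.42, against -0.02 for all tested probe sets. The limma fit called 2 of the 37, Stmn1 and Kif2c, both as falls, and 0 as rises. Over all tested probe sets, 4.3% were called in this comparison, 1.06% as falls and 3.24% as rises. At an unadjusted p under 0.05, 19 of the 37 genes were lower and 0 were higher. Of all 9326 tested probe sets, 7.25% were lower at that level and 952 were higher. In 22 of the 37 genes every GD14 value lay below every GD12 value, which held for 10.3% of all tested probe sets. The reverse separation was seen in 0 of the 37, against 1124 of the 9326 tested probe sets. With the replicate number as a block, limma called 6 of the 37 as falls: Stmn1, Kif2c, Kif11, Tacc3, Bub1 and Kif20a. In that fit 2.07% of all tested probe sets were called as falls. At an unadjusted p under 0.05 it had 23 of the 37 lower, against 11.1% of all tested probe sets.

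**Figure D1:**
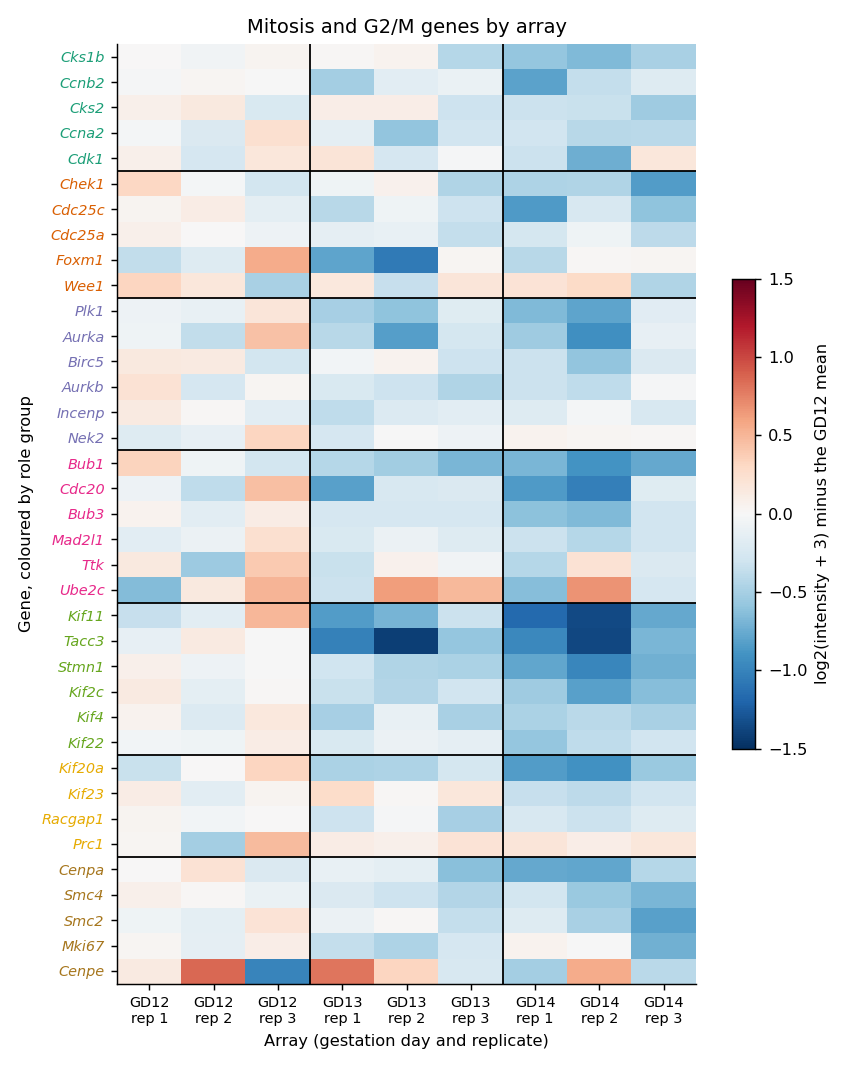
Heat map of the 37 mitosis and G2/M genes (rows, grouped by role) on the 9 arrays (columns), coloured by log2(intensity + 3) minus the gene's GD12 mean. Blue, lower than GD12, spreads over most rows on GD13 and deepens on GD14, while Prc1, Wee1, Nek2 and Ube2c keep near-white or mixed colours.

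Relative to each gene's GD12 mean, the median of the 37 genes lay between -0.07 and 0.05 on the GD12 arrays. It lay between -0.27 and -0.16 on GD13 and between -0.46 and -0.39 on GD14, so the days did not overlap. The same medians over all tested probe sets lay between -0.06 and 0.08 on all 9 arrays. Between arrays of the same number, GD14 minus GD12, the median over the 37 genes was -0.50 for number 1, -0.35 for number 2 and -0.495 for number 3. On the arrays numbered 3 the actin ratio was 1.42 on GD12 and 1.37 on GD14, and 33 of the 37 genes were lower on GD14. On those numbered 1 the ratio went from 1.54 to 2.44, with 33 of 37 lower, and on those numbered 2 from 1.77 to 2.29, with 30 of 37 lower. With the log2 actin ratio as a covariate the median difference was -0.37, and limma called 1 gene, Stmn1. Falls were called there in 1.28% of all tested probe sets. Each comparison by number sets 1 array against 1 array, and the share of all tested probe sets lower in it was not counted. Whether RNA quality bears on these differences was not tested.

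Kinesins and microtubule regulators, as grouped here with earlier results known, had a median difference of -0.74 over 6 genes. The kinesins Kif20a (-0.76), Kif23 (-0.34) and Cenpe (-0.12) are described with cytokinesis and centromeres, and no test compared the groups. In each of the 6 every GD14 value lay below every GD12 value, and 2 were called, both as falls. Stmn1 encodes stathmin, which binds tubulin dimers and destabilizes microtubules. Its intensity was 4821, 4365 and 4581 on GD12, 3717, 3344 and 3310 on GD13, then 2678, 2327 and 2780 on GD14. The days separated fully, each below the day before. Stmn1 fell 1.77-fold from GD12 to GD14 (log2 -0.82, SE 0.14, limma adjusted p = 0.0139), and it was the 1 gene of the 37 that passed the F-test over the 3 days (adjusted p = 0.0422), where 2.58% of all tested probe sets passed. At an unadjusted F-test p under 0.05 there were 12 of the 37 genes, against 14.2% of all tested probe sets. The fall lost its call without GD12 replicate 1 (adjusted p = 0.0623), GD14 replicate 1 (0.054) or GD14 replicate 2 (0.057) and with only the groups compared (0.0557), and the F-test lost it whichever array was left out (adjusted p from 0.0577 to 0.162). The F-test call also ended with the actin covariate (0.0628), median scaling (0.123), no filter (0.0837) and quantile normalization (0.0732).

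Kif2c encodes a kinesin that depolymerizes microtubules and corrects faulty attachments at centromeres. Its intensity was 240, 197 and 221 on GD12, 173, 161 and 179 on GD13, then 150, 123 and 139 on GD14. Again each day lay below the day before without overlap. Kif2c fell 1.58-fold from GD12 to GD14 (log2 -0.66, SE 0.15, limma adjusted p = 0.0438), but the call ended whichever array was left out (adjusted p from 0.0633 to 0.155). It also ended with the actin covariate (0.0621), median scaling (0.108), no filter (0.0826) and only the groups compared (0.124). Kif11, the motor Eg5 that pushes spindle poles apart, had 179, 204 and 322 on GD12, 126, 139 and 181 on GD13, then 100, 87.3 and 133 on GD14. The GD14 values lay below all GD12 values, and the array numbered 3 was the brightest on every day. Its difference had the largest size of the 37 (log2 -1.09, SE 0.26) and missed the threshold in limma (adjusted p = 0.0547), while the fit with the replicate number as a block called it (adjusted p = 0.00925, and 0.0259 in its F-test).

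Tacc3 encodes a protein that stabilizes spindle microtubules together with Ckap5 and clathrin. Its intensity was 68.3, 82.3 and 74.2 on GD12, 35.5, 26.3 and 49.2 on GD13, then 36.8, 27.1 and 45.4 on GD14. Both later days lay below GD12, and they overlapped each other. The log2 difference from GD12 to GD14 was -1.01 (SE 0.25, limma adjusted p = 0.0597; 0.0373 with the replicate block). The chromosome-bound kinesins Kif4 (log2 -0.45) and Kif22 (-0.42) were not called. Kif22 had 726, 710 and 805 on GD12, 638, 704 and 678 on GD13, then 497, 573 and 609 on GD14, while Kif4 had 118 to 154 on GD12 and 97.6 to 103 on GD14.

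**Figure D2:**
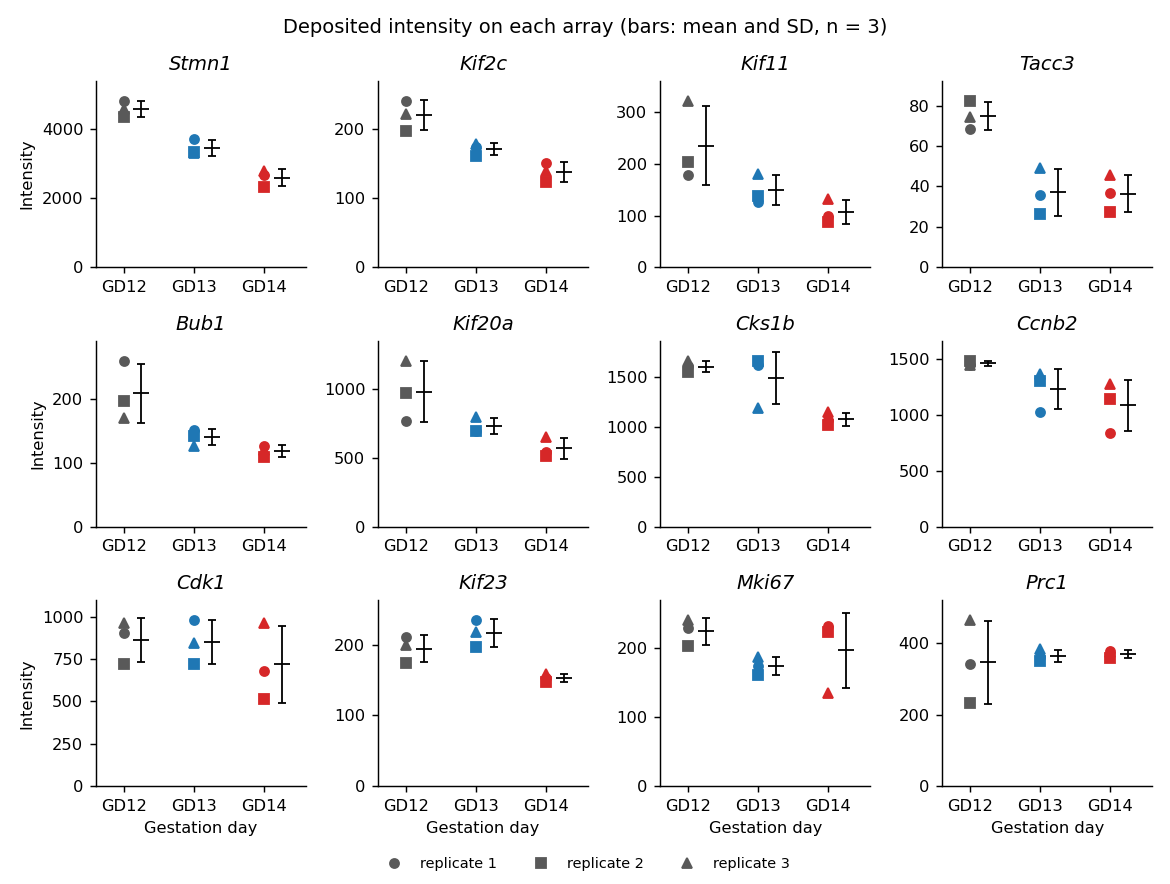
Deposited intensity (linear axis from 0) of 12 mitosis genes on each array by gestation day, with marker shape for the replicate number and bars for the mean and SD (n = 3). Stmn1 and Kif2c step down each day without overlap, Tacc3 lies lower on both later days than on GD12, Kif23 lies lowest on GD14, and the days of Prc1 overlap.

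Among spindle checkpoint and anaphase promoting complex genes all 6 had differences below 0, with a median of -0.43, and 0 were called. Bub1, a checkpoint kinase at kinetochores, had 260, 197 and 170 on GD12, 152, 142 and 127 on GD13, then 127, 109 and 119 on GD14. Every value of GD13 and of GD14 lay below every GD12 value. Its log2 difference was -0.78 (SE 0.18, limma adjusted p = 0.0522; 0.0284 with the replicate block). Bub3, its binding partner, had 1545, 1331 and 1609 on GD12, 1250, 1251 and 1248 on GD13, then 976, 940 and 1220 on GD14. Here the days did not overlap at all (log2 -0.52 from GD12 to GD14, SE 0.16, limma adjusted p = 0.119). Bub3, Kif2c, Kif22 and Stmn1 were the 4 genes in which each day lay wholly below the day before. The share of all tested probe sets with this full order was not counted. Cdc20, the activator that the checkpoint restrains, had a log2 difference of -0.68, but its days overlapped, with 925 to 1654 on GD12 and 590 to 1065 on GD14. Mad2l1, the checkpoint protein MAD2, had 571 to 750 on GD12 and 472 to 518 on GD14 without overlap and was at -0.35. The checkpoint kinase Ttk was at -0.14, and Ube2c, the ubiquitin-conjugating enzyme of the anaphase promoting complex, at -0.07. The intervals of the last 2 were wide, from -0.76 to 0.47 for Ttk and from -1.02 to 0.88 for Ube2c (95%, limma).

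The 5 genes of cyclins, Cdk1 and its Cks subunits were all lower on GD14, with a median difference of -0.40, and 0 were called. Ccnb2, cyclin B2, had 1452, 1490 and 1454 on GD12, 1032, 1310 and 1369 on GD13, then 838, 1144 and 1283 on GD14. Both later days lay below GD12, with the array numbered 1 lowest on each (log2 -0.45 from GD12 to GD14, SE 0.19, limma adjusted p = 0.277). Cks1b and Cks2 encode small subunits that dock Cdk complexes on phosphorylated substrates. Cks1b had 1605, 1545 and 1653 on GD12, 1616, 1662 and 1188 on GD13, then 1072, 1013 and 1143 on GD14. All GD14 values lay below all earlier ones, and GD13 overlapped GD12 (log2 -0.57 from GD12 to GD14, SE 0.17, limma adjusted p = 0.104). Cks2 had a similar order of days, with 1031 ± 138, 1006 ± 154 and 778 ± 61.0 (SD, n = 3 each). Ccna2, cyclin A2, had 506, 444 and 609 on GD12 and 422, 386 and 390 on GD14, again without overlap (log2 -0.37). The kinase gene itself, Cdk1, had 905, 718 and 962 on GD12 and 681, 513 and 962 on GD14, so the days overlapped (log2 -0.30, 95% interval -0.86 to 0.26, limma adjusted p = 0.608).

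Genes that control entry into mitosis were mixed. Chek1, the checkpoint kinase that restrains Cdc25, had a log2 difference of -0.58 from GD12 to GD14, and Cdc25c was at -0.57. In both, every GD14 value lay below every GD12 value, and neither was called (limma adjusted p = 0.201 and 0.163). Chek1 had 390, 306 and 257 on GD12 and 227, 229 and 174 on GD14, and Cdc25c had 217, 227 and 190 and then 116, 178 and 137. Cdc25a was at -0.24. Wee1, the kinase that inhibits Cdk1, had means of 116 ± 32.6, 114 ± 22.4 and 117 ± 30.6 on GD12, GD13 and GD14 (SD, n = 3 each). Its interval from -0.63 to 0.66 still allows a change of moderate size either way. Foxm1, the transcription factor of many G2/M genes, had 170, 192 and 325 on GD12, 126, 103 and 224 on GD13, then 163, 223 and 225 on GD14. These days overlapped, and limma called none of its differences (log2 -0.12 from GD12 to GD14, adjusted p = 0.9).

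Mitotic kinases and their cofactors had a median difference of -0.31 over 6 genes, and 0 were called. Plk1, the polo kinase, had 418, 408 and 499 on GD12, 309, 290 and 387 on GD13, then 277, 252 and 390 on GD14. Both later days lay below GD12, and the array numbered 3 was the highest on each day (log2 -0.54 from GD12 to GD14, SE 0.21, limma adjusted p = 0.21). Aurka, the spindle pole Aurora kinase, was at -0.52 with overlapping days, 136 to 240 on GD12 and 92.4 to 163 on GD14. The chromosomal passenger genes Birc5 (survivin, -0.38), Aurkb (-0.24) and Incenp (-0.16), whose proteins work in 1 complex, lay closer to 0. The centrosome kinase Nek2 had 132, 139 and 190 on GD12, 126, 151 and 144 on GD13, then 157, 155 and 153 on GD14. Its GD14 values lay within the GD12 range, and the interval of the difference ran from -0.36 to 0.42.

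Among 5 genes of centromeres, condensin and the chromosome surface the median was -0.50. Cenpa, the centromeric histone, had 329, 379 and 281 on GD12, 303, 296 and 211 on GD13, then 190, 189 and 243 on GD14 (log2 -0.66 from GD12 to GD14, SE 0.20, limma adjusted p = 0.125). The condensin subunit Smc4 had 868, 830 and 767 on GD12, 707, 659 and 605 on GD13, then 677, 556 and 509 on GD14 (log2 -0.51, adjusted p = 0.13). Its partner Smc2 was at -0.50. In these 3 genes every GD14 value lay below every GD12 value. Mki67, the source of the proliferation marker Ki-67, had 228, 203 and 240 on GD12, 173, 161 and 187 on GD13, then 232, 222 and 135 on GD14. GD13 lay wholly below GD12, but 2 of the 3 GD14 arrays were back in the GD12 range (log2 -0.22 from GD12 to GD14, limma adjusted p = 0.673). Cenpe, a kinetochore kinesin, had 3.5 to 20.4 on the 9 arrays, around the filter intensity, and its interval ran from -1.23 to 0.99.

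The 4 cytokinesis genes did not share 1 pattern. Kif20a, a kinesin of the late spindle, had 766, 970 and 1209 on GD12, 696, 699 and 802 on GD13, then 541, 514 and 656 on GD14. The GD14 values lay below all earlier ones (log2 -0.76 from GD12 to GD14, SE 0.20, limma adjusted p = 0.0679; 0.0284 with the replicate block). Kif23 and Racgap1 encode the 2 subunits of centralspindlin, which positions the cleavage furrow. Kif23 had 210, 174 and 199 on GD12, 235, 196 and 218 on GD13, then 152, 147 and 158 on GD14. All GD14 values lay below all values of both earlier days. Racgap1 had 246, 232 and 241 on GD12, 193, 237 and 168 on GD13, then 203, 192 and 209 on GD14, with GD14 wholly below GD12 (log2 -0.25). Prc1, which bundles microtubules of the central spindle, had 341, 233 and 464 on GD12, 361, 351 and 383 on GD13, then 378, 358 and 374 on GD14. Its log2 difference of 0.15 had an interval from -0.37 to 0.67. Prc1, Nek2 and Wee1 were the 3 genes of the 37 whose difference was above 0. Under quantile normalization or median scaling Nek2 and Wee1 were slightly below 0 and Prc1 was above it, and without GD12 replicate 2 Prc1 was at -0.10.

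**Figure D3:**
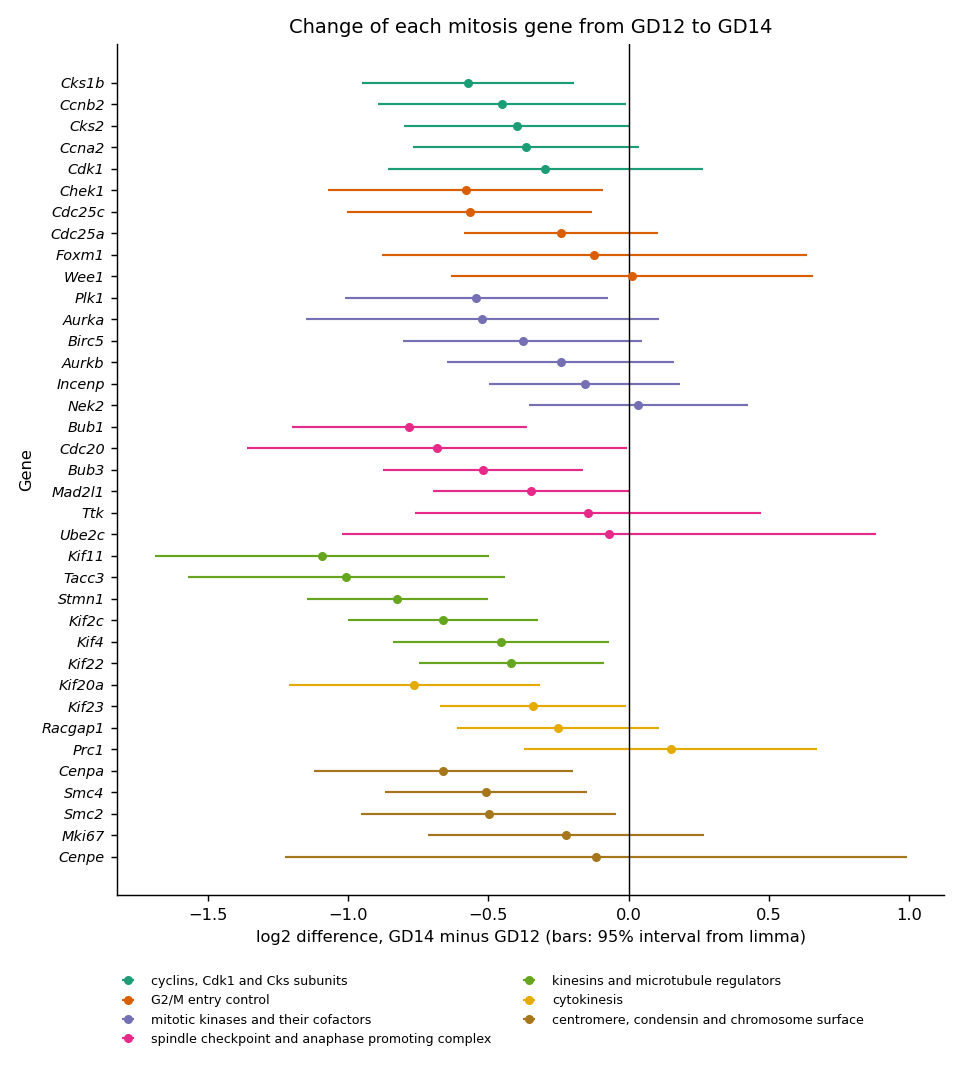
Log2 difference from GD12 to GD14 of each of the 37 genes with its 95% interval from limma, coloured by role group. The points run from -1.09 for Kif11 to 0.15 for Prc1, and 34 of 37 lie left of 0.

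The intervals bound the size of these differences. In 23 of the 37 genes the 95% interval excluded a 2-fold drop, and 2 genes, Kif11 and Tacc3, had a point estimate beyond it. Other probe sets of the same genes gave further readings. Among the 37 genes 11 had more than 1 probe set, and 8 of the 13 further probe sets passed the filter. A dimmer probe set of Cdc25c was called as a fall (log2 -0.70, limma adjusted p = 0.0313), as was a dimmer one of Bub1 (-1.04, adjusted p = 0.0434). This Bub1 probe set had 12.1, 11.8 and 9.5 on GD14, around the filter intensity. Its daily steps were -0.06 and then -0.98, against -0.55 and then -0.24 for the brighter one. The second probe set of Kif20a had a log2 difference of -0.75, close to the -0.76 of the brighter one. The other probe sets of Plk1 were at -0.35 and -0.22, that of Incenp at -0.52, that of Mki67 at -0.04 and that of Foxm1 at -1.17 (SE 1.02), none of them called. With the mean of a gene's tested probe sets in place of the brightest, 5 of the 37 genes were called between GD12 and GD14. The share over all genes was not counted for that fit. The probe sets used for Plk1, Foxm1, Kif20a and Cdc25c carry identifiers with which the array maker marks probes shared with other sequences. Those of Kif22 and Ube2c carry a different mark of the maker, an r suffix.

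Both daily steps had medians below 0. From GD12 to GD13, 33 of the 37 genes had differences below 0, against 46.7% of all tested probe sets, and the median was -0.25 against 0.03. From GD13 to GD14, 29 of the 37 were below 0, against 54.8%, with a median of -0.24 against -0.03. Mean log2 levels were highest on GD12 and lowest on GD14, with GD13 between, in 26 of the 37 genes, a pattern seen in 23.4% of all tested probe sets. In limma 0 of the 37 genes were called from GD12 to GD13, where 0.643% of all tested probe sets were (0.0751% lower and 0.568% higher). At an unadjusted p under 0.05, 5 of the 37 were lower and 0 higher. Of all 9326 tested probe sets, 4.54% were lower and 600 higher. In the fit with array weights the count was 1, Tacc3, where 0.697% of all tested probe sets were called as falls. From GD13 to GD14 limma called 0 of the 37, where 0.0429% of all tested probe sets were called (0.0107% lower and 0.0322% higher), and 0 under every alternative run. At an unadjusted p under 0.05, 3 of the 37 were lower and 0 higher, against 7.18% of all tested probe sets in either direction and 2.72% lower. With the replicate block 8 of the 37 were lower at that level, against 5.05% of all tested probe sets. The block gave 10 lower from GD12 to GD13, against 7.52%. In 12 genes every GD13 value lay below every GD12 value, against 8.39% of all tested probe sets, and in 9 genes every GD14 value lay below every GD13 value, against 5.88%. Nek2 was the 1 gene with the reverse separation, between GD13 and GD14, where 666 of the 9326 tested probe sets had it.

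The steps of single genes are given as log2 differences. Tacc3 had -0.998 from GD12 to GD13 and -0.01 from GD13 to GD14. Kif23 had 0.15 and then -0.49, Cks1b -0.12 and then -0.45, Chek1 -0.15 and then -0.43, and Stmn1 -0.41 and then -0.42. Foxm1 had -0.61 and then 0.49. Tests of the second step minus the first called 0 of the 37 genes in limma, as they called 0% of all tested probe sets, and 0 of the 37 under every alternative run. At an unadjusted p under 0.05 there were 2 genes, Kif23 (1 gene lower in the second step than in the first, against 2.43% of all tested probe sets) and Tacc3, against 4.86% in either direction, and the lowest adjusted p of the 37 was 0.957. The second step minus the first was below 0 in 16 of the 37 genes, against 55.4% of all tested probe sets.

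Other mitosis genes, from a list of 98 that did not include the 37, were also mostly lower on GD14. Of these, 64 were matched to a probe set and 61 passed the filter. Through an alias the matched genes include Dazl, a gene that was not on the list. Dazl (log2 0.12 from GD12 to GD14, mean intensity 22.2) is counted in all values given for the 61. From GD12 to GD14, 51 of the 61 had differences below 0, with a median of -0.27, and limma called 2 (3.28%), both as falls, against 4.3% of all tested probe sets called and 1.06% called as falls. In 19 of the 61 every GD14 value lay below every GD12 value, against 10.3% of all tested probe sets. Ncaph encodes the kleisin subunit of condensin I. It had 116, 133 and 119 on GD12, 82.9, 79.9 and 73.7 on GD13, then 71.9, 58.3 and 74.7 on GD14. Both later days lay below GD12 (log2 -0.82 from GD12 to GD14, SE 0.15, limma adjusted p = 0.019; F-test 0.0477, and 0.0624 with the replicate block), and a dimmer probe set was at 0.28 (adjusted p = 0.769). The Ncaph call ended without GD12 replicate 1 or 2 or GD14 replicate 1 or 2 (highest adjusted p 0.0688), and with only the groups compared (0.0708). Its F-test call ended whichever array was left out (0.0559 to 0.17), and also with the actin covariate (0.0723), an added value of 1 (0.0504), median scaling (0.103), no filter (0.0913) and quantile normalization (0.0712). Dlgap5, a spindle protein also called HURP, had 73.4, 89.8 and 95.5 on GD12, 59.2, 59.8 and 58.9 on GD13, then 39.1, 59.2 and 45.9 on GD14 (log2 -0.82, SE 0.18, adjusted p = 0.0421). The Dlgap5 call held without GD14 replicate 2 and ended without any other single array (highest adjusted p 0.145). It also ended with the actin covariate (0.0626), no filter (0.0731) and only the groups compared (0.12). Ckap5, the microtubule polymerase that binds Tacc3, had 305, 356 and 323 on GD12, 214, 220 and 233 on GD13, then 222, 222 and 227 on GD14. As in Tacc3, both later days lay below GD12 and overlapped each other (log2 -0.54 from GD12 to GD14, limma adjusted p = 0.0586, and 0.0463 with the replicate block).

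**Figure D4:**
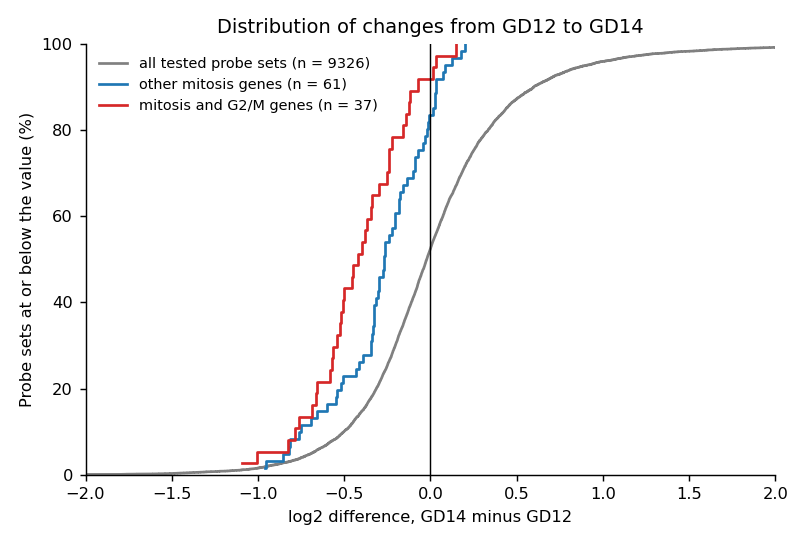
Cumulative share (%) of log2 differences from GD12 to GD14 for all 9326 tested probe sets, 61 other mitosis genes and the 37 mitosis and G2/M genes. The 37 genes have a median of -0.42, the other mitosis genes -0.27 and all tested probe sets -0.02. The other mitosis genes include Dazl, which was not on their list.

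Markers of other cell types moved over the same days, among the lists' genes that passed the filter. Genes that fell or rose here are those called by limma from GD12 to GD14. Of all tested probe sets, 1.06% were called as falls and 3.24% as rises. Of 19 neuron genes, from 22 listed, 3 fell and 0 rose from GD12 to GD14. In all, 18 of the 19 had differences below 0, with a median of -0.72, beside -0.42 for the 37 mitosis genes. Their summed intensity was 3758 to 6391 on GD12 and 2446 to 3266 on GD14. Stathmin is also abundant in developing neurons. On the arrays numbered 3 the neuron sum was the lowest of each day, at 3758 on GD12, 2788 on GD13 and 2446 on GD14. Stmn1 on those arrays lay between the other 2 on GD12 (4581), was lowest on GD13 (3310) and highest on GD14 (2780). Whether neuron content bears on the Stmn1 values was not tested. Of 6 bone genes, from 11 listed, 5 rose, with sums of 1296 to 1957 on GD12 and 9132 to 12360 on GD14. Of 15 contractile muscle genes, from 18 listed, 8 rose (1656 to 2089, then 3485 to 5279), and of 13 epithelial genes, from 18 listed, 9 rose (1282 to 1529, then 3458 to 3842). Of 10 leukocyte genes, from 13 listed, 5 rose (537 to 543, then 1000 to 1186), and of 9 red cell genes, from 18 listed, 1 rose and 3 fell (22600 to 28770, then 14760 to 18580). Of 18 facial mesenchyme genes, from 20 listed, 1 fell (7329 to 7478, then 5876 to 6337), and 13 of the 18 had differences below 0, with a median of -0.31. No marker was at 0 on any array. The summed intensity of the 37 mitosis genes was 20200 to 22750 on GD12, 17480 to 18120 on GD13 and 14050 to 16120 on GD14. The part of the marker shifts in the lower mitosis transcripts was not tested.

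Promoters of mitosis genes are known for a pair of short elements. The CHR, with the core TTTGAA or TTCGAA, is bound by MuvB complexes that repress these genes in resting cells and activate them in G2, and CCAAT boxes upstream of it are bound by NF-Y. RefSeq promoter windows (GRCm38.p6, 250 bases before to 50 after a start site) were found for 28 of the 37 genes, in 30 windows. TTTGAA on either strand was in 21 of the 30 windows (70%), against 17.9% of all 32851 windows and 12.4% of the windows of genes tested on the arrays. TTCGAA was in 1 of the 30, in Bub1, against 1.56% of all windows. CCAAT on either strand was in 25 of the 30 (83.3%), against 37.4% of all windows, and both TTTGAA and CCAAT were in 20 (66.7%, against 6.95%). No motif contains another, so 1 match was never counted for a second motif, though neighbouring matches may share end letters. Windows of the other mitosis genes, with Dazl not excluded, held TTTGAA in 28.3% and CCAAT in 43.3% of 60.

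The 150 bases upstream of the start site are shown for Kif2c, which fell, for Kif11 and Bub1, which were among the 5 genes with the lowest p in the F-test, and for Cdk1, the kinase that drives mitosis, which was added after its values were seen. Bases are 5′ to 3′ on the gene's strand, and capitals mark TTTGAA (or its reverse complement TTCAAA) and CCAAT (or ATTGG). Kif2c lies on the minus strand at chr4:117178773-117178922, Kif11 on the plus strand at chr19:37376232-37376381, Bub1 on the minus strand at chr2:127831860-127832009 and Cdk1 on the minus strand at chr10:69352913-69353062.
Kif2c: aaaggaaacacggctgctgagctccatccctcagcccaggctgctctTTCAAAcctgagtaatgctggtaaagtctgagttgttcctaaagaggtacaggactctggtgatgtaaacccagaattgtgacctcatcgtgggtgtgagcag
Kif11: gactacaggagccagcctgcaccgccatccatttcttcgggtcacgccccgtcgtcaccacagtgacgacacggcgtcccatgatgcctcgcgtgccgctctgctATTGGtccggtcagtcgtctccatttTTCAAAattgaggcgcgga
Bub1: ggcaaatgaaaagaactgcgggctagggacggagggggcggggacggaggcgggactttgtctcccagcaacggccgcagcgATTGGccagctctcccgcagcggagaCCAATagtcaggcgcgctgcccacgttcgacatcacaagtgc
Cdk1: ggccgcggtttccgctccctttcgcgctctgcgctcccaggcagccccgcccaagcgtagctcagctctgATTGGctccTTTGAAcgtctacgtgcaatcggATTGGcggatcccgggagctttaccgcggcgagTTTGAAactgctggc
Kif2c holds a single TTTGAA, on the opposite strand, and no CCAAT in its window. Kif11 has both, Bub1 has 2 CCAAT boxes here and its TTCGAA just after the start site, and Cdk1 has 2 copies each of TTTGAA and CCAAT here. The window of Tacc3 held none of the 3 motifs, and Stmn1 was among the genes with no window. Tacc3 was not printed, although its F-test p was lower than those of Kif2c, Kif11 and Bub1. The ranges of the genes with and without TTTGAA overlapped. The 19 genes with TTTGAA had a median log2 difference from GD12 to GD14 of -0.45 (range -1.09 to 0.15), and the 9 without it -0.38 (range -1.01 to 0.03). The split is by TTTGAA alone, so the 9 include Bub1 (-0.78), which has the other CHR core, TTCGAA. These are descriptions of short letter matches, with no test.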

How the data were processed

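Total RNA of orofacial tissue from 3 gestation days was measured on 9 arrays, 3 per day. The deposited values are intensities on a linear scale, scaled by the authors: after trimming 2% of probe sets at each end, every array has a mean of 150.1. The software behind them is not given in the sources used here. Of 12488 probe sets, 66 maker's controls and those with a mean log2 value at or under the 25th percentile were left out. limma 3.58.1 in R 4.3.3 was fitted to log2(intensity + 3) of the remaining 9326 on all 9 arrays, with 6 residual and 2.85 prior degrees of freedom and Benjamini-Hochberg adjustment, and was tested on simulated data. Arrays carry no read depth, so their number limits the precision. Probe sets were named from the platform annotation. Genes, role groups and lists were chosen with earlier results of these data known. All 37 genes are described; those called, and the 3 brightest, are given by array, with others added after their values were seen.

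Arrays of the same number had residual correlations of 0.189 to 0.419 across days, against -0.287 to -0.0171 for arrays of different numbers. The numbers therefore appear to pair the arrays, but the main fit had no block. Its calls, SEs, intervals and F-tests ignore such a pairing. The value with the block stands beside results whose call it changed. The alternatives tried were the replicate block, the actin ratio as covariate, array weights, trend with robust variances, an added value of 1 or of 11, a filter at the median or none, scaling by medians or by quantiles, only the groups compared, gene means and omission of each array. Python 3.11.15 prepared tables and figures.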

Additional observations from a re-analysis of the deposited data

How the results depend on the processing

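From GD12 to GD14, 28 of the 37 genes, all lower on GD14, kept their direction under all 20 alternatives, and Tacc3 kept it under the 19 that tested it, since it did not pass the median filter. The exceptions were Cenpe, Foxm1, Mki67, Nek2, Prc1, Ttk, Ube2c and Wee1, none of them called. Some of the 20 could not change a direction, since they leave this difference as it is. These were the filter changes, the replicate block, trend with robust variances, only the groups compared and omission of a GD13 array. Gene means were not among the 20. The median difference of -0.42 stayed between -0.45 and -0.40 when 1 array was left out. The count of 2 called genes became 6 with the replicate block, and 7 with array weights or with trend and robust variances. It became 5 with an added value of 11, a median filter or gene means, and 3 with quantile normalization. It became 1 with the actin covariate, median scaling or no filter, and 0 with only the groups compared. Without single arrays it was 0 to 2. The F-test count of 1 became 3 with array weights, 2 with gene means or the replicate block, 0 with the actin covariate, median scaling, no filter or quantile normalization, and 0 whichever array was left out. Falls called from GD12 to GD14 were 2.07% of tested probe sets with the block, 1.9% with array weights and 1.65% with robust variances. The share was 1.24% with an added value of 11, 2.44% with a median filter and 1.27% with quantile normalization. It was 1.28% with the actin covariate, 0.89% with median scaling, 0.555% with no filter and 0.311% with only the groups compared. Without single arrays it was 0.332% to 1.07%, and with gene means it was not counted. The cause of these shifts was not tested.

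From GD12 to GD13 the count of called genes was 1 with array weights, and the median difference was -0.31 with median scaling. From GD13 to GD14 the median lay between -0.25 and -0.17 without single arrays. The median of the second step minus the first was 0.04, 0.11 with array weights or median scaling, and -0.017 to 0.11 without single arrays.

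Over all probe sets, the 401 calls from GD12 to GD14 became 615 with array weights, 620 with the replicate block, 227 with only the groups compared and 178 to 394 without single arrays. The 60 from GD12 to GD13 became 201 with array weights, 94 with a median filter, 35 with no filter, 31 with only the groups compared, 115 with trend and robust variances and 17 to 59 without single arrays. The 4 from GD13 to GD14 became 2 with an added value of 1, with only the groups compared or with quantile normalization, 16 with an added value of 11, 11 with array weights, 19 with a median filter, 0 with no filter, 26 with trend and robust variances and 0 to 4 without single arrays. The F-test count of 241 became 405 with array weights, 369 with trend and robust variances and 88 to 239 without single arrays. The step difference count of 0, with 453 probe sets at an unadjusted p under 0.05, became 1 with array weights or the replicate block, 2 with a median filter or with trend and robust variances, and 0 whichever array was left out. The block changed no call of a single gene other than those given above.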
